A study of Mus musculus with 6 samples.

Results

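The glucocorticoid receptor gene Nr3c1 and 9 genes known as targets of the receptor or as enzymes of its ligand (Fkbp5, Tsc22d3, Per1, Zbtb16, Klf9, Dusp1, Sgk1, Hsd11b1 and Cdkn1a) were followed in the RNA of mouse bone marrow mesenchymal stromal cells (BMSCs). These 10 genes were fixed by name, matched 1 gene each among the 54532 genes of the deposited tables, and all 10 passed the filter on low counts that left 14624 genes for testing. The cells were wild-type primary cultures, adherent marrow cells that can form osteoblasts, kept for 7 days in osteogenic medium that held β-glycerophosphate at 10 mM and ascorbic acid at 50 μg/mL. The 3 Ni cultures also received 0.1 μM nickel ion and the 3 control cultures did not. Dexamethasone, a synthetic glucocorticoid, was in the medium of both groups, at 100 nM by the sample labels and at a lower concentration by the paper's methods. No culture without dexamethasone was analysed here, so the values give the levels of these genes under the hormone and the difference between Ni and control cultures, not their induction. The replicates were stated to be independent, but whether they came from separate animals was not, so the p-values measure the spread between these cultures.

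The glucocorticoid receptor is a nuclear receptor that waits in the cytoplasm in a complex with heat shock proteins and immunophilins. Once it binds hormone it moves to the nucleus, where it binds the glucocorticoid response element (GRE) and raises or lowers the transcription of nearby genes. In marrow stromal cultures dexamethasone is a standard part of the osteogenic cocktail, while in bone an excess of glucocorticoid is known to impair osteoblasts. Fkbp5 is a feedback inhibitor of the receptor, and Tsc22d3, Per1, Zbtb16, Klf9, Dusp1 and Sgk1 are targets reported in many cell types.

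Libraries held from 16101033 to 18642504 counts. Control replicate 3 stood apart from its group: the mean Pearson's r of its log2 CPM (CPM being counts scaled to library size, here after TMM normalization) over the genes tested was 0.987 with the Ni libraries and 0.978 with the other controls. Its summed level of 11 osteoblast markers, 11970 CPM, lay above Ni replicate 2 at 11259 CPM, while control replicates 1 and 2 were at 5876 and 5339 CPM and Ni replicates 1 and 3 at 16011 and 16395 CPM. Ni replicate 2 was the Ni library nearest the controls. Its mean r was 0.982 with them and 0.984 with the other Ni libraries. For Ni replicates 1 and 3 the mean r with the controls was 0.977 and 0.976. The 12 general stromal markers summed to 14100, 14830 and 23592 CPM in control replicates 1, 2 and 3. In Ni replicates 1, 2 and 3 they summed to 34892, 28584 and 33743 CPM. The cultures also held macrophage RNA, with all 15 markers detected and a summed level from 29168 to 34220 CPM in controls and from 29092 to 29838 CPM in Ni libraries. The 34220 CPM was that of control replicate 3. Of the 8 neutrophil markers 4 were detected, at no more than 3.18 CPM in sum. Of the 8 lymphocyte markers 4 were detected, with a summed level of 35.6, 42.4 and 14.2 CPM in the controls and from 15.2 to 19.1 CPM in Ni libraries. Cd3e, which defines T cells, was among those at 0 counts. In such a mixed culture fewer cells of a type and less RNA per cell cannot be told apart.

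Per length, in the authors' FPKM (counts scaled by gene length and by library size), the 10 genes spanned 2 orders of magnitude. Cdkn1a, which encodes the cell cycle inhibitor p21, had the highest mean over the 6 libraries, 61.7 FPKM, followed by Tsc22d3 at 46.0 and Fkbp5 at 35.5 FPKM. The receptor itself stood at 19.3 FPKM, above 81.7% of the genes tested. Dusp1 at 17.7, Sgk1 at 14.4, Klf9 at 14.2 and Per1 at 11.7 FPKM came next. Zbtb16 at 0.974 and Hsd11b1 at 0.507 FPKM were scarce. The ranges over the libraries overlapped between neighbours in this order except at 2 steps, from Fkbp5 to Nr3c1 and from Per1 to Zbtb16. The plot of levels per length shows these steps. For Klf9 the deposited length behind the FPKM was 3263 bases, against 4815 exon bases in the GENCODE M21 annotation. For Dusp1 it was 2697 against 3311 and for Nr3c1 7425 against 7684. The places of these genes in the order therefore depend on the lengths used.

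**Figure D1:**
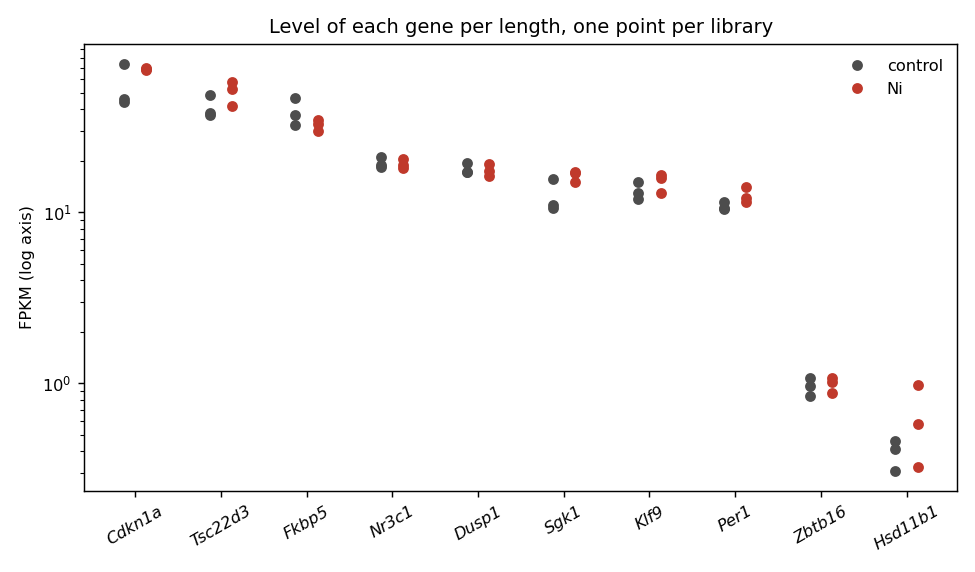
FPKM (log axis) of each of the 10 genes, 1 point per library, controls in grey and Ni in red, ordered by mean level. Every library of Cdkn1a, Tsc22d3 and Fkbp5 lies above every library of Nr3c1, while Zbtb16 and Hsd11b1 stay at or under 1.08 FPKM.

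None of the 10 genes passed an adjusted p of 0.05 between Ni and control cultures (quasi-likelihood test of edgeR, Benjamini-Hochberg adjusted over 14624 genes), where 0% of all genes tested did. The smallest adjusted p among them was 0.334, for Sgk1. At an unadjusted p under 0.05 there was 1 of the 10, Sgk1, against 13.4% of all genes tested, a share near that background. DESeq2's Wald test called 0 of the 10 at an adjusted p of 0.05, where it called 1.94% of all genes, and 1 of the 10 had an unadjusted p under 0.05 there, as did 13.7% of the same genes. For none of the 10 were the 3 Ni libraries clear of the 3 controls, against 14.7% of all genes tested. The log2 fold change was positive for 7 and negative for 3, with a median of 0.19, while over all genes tested 48.1% were positive and the median was -0.01. With 3 cultures against 3 the smallest two-sided p of an exact permutation test is 0.1, and the smallest reached by any of the 10 was 0.2.

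**Figure D2:**
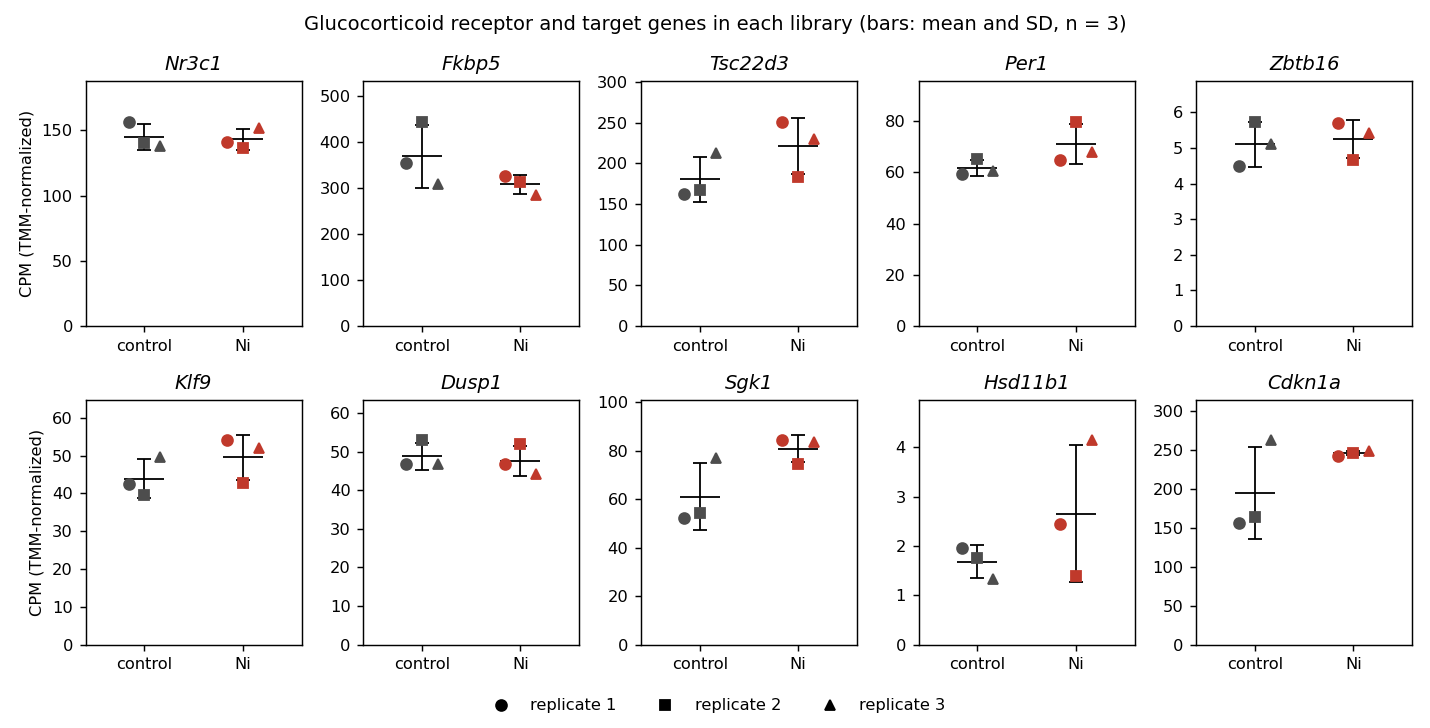
CPM (TMM-normalized, axes from 0) of each gene in each library, with controls in grey, Ni in red, 1 marker shape per replicate number, and bars for the mean and SD of 3 libraries. For Sgk1, Tsc22d3, Klf9 and Cdkn1a the triangle of control replicate 3 sits beside the Ni libraries and away from the other 2 controls.

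The level of the receptor was close to even across the 6 cultures. Nr3c1 (ENSMUSG00000024431, minus strand of chromosome 18 of GRCm38, from 39410545 to 39491301) was at 156, 141 and 138 CPM in the controls and at 141, 136 and 152 CPM in the Ni libraries. The highest library exceeded the lowest 1.15 times, and the groups overlapped entirely. The mean was 145 ± 9.92 in controls against 143 ± 8.01 with Ni (CPM ± SD, n = 3 each). The ratio of Ni to control in the fit was 0.986, with a 95% interval from 0.850 to 1.14 (log2 fold change of Ni over control -0.02, standard error (SE) 0.10, edgeR adjusted p = 0.951). The related mineralocorticoid receptor gene Nr3c2, whose product also binds glucocorticoids, averaged 0.565 CPM in controls and 0.503 CPM in Ni libraries.

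The heat shock proteins and co-chaperones that hold the receptor ready for hormone were tested as a list of 15 genes. Of these 5 had a positive and 10 a negative log2 fold change (median -0.06), and 0 had an unadjusted p under 0.05 in edgeR, where 13.4% of all genes tested did. Without control replicate 3, 2 of the 15 passed an adjusted p of 0.05, both lower, where 6.49% of all genes were called lower. Hspa8, the constitutive Hsp70, averaged 1236 ± 233 in controls against 1013 ± 96.8 with Ni (CPM ± SD, n = 3 each). The Hsp90 genes Hsp90ab1 and Hsp90aa1 had log2 fold changes of -0.05 and 0.18. Ppp5c, a phosphatase of the complex, had -0.27 (SE 0.13, adjusted p = 0.386 from edgeR). For 15 genes of coactivators and corepressors the median was -0.04, and again 0 had an unadjusted p under 0.05 in edgeR. Without control replicate 3 an adjusted p of 0.05 was passed by 1, lower, beside the same 6.49% of all genes. Ncoa3, a coactivator, was at -0.22, Carm1, an arginine methyltransferase that assists coactivators, at 0.19 and Ehmt2, a histone methyltransferase, at -0.18 on the log2 scale.

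Among the targets the most negative estimate was that of Fkbp5, which did not pass the test. It encodes FKBP51, an immunophilin that lowers the receptor's affinity for hormone and is itself induced by the receptor. Fkbp5 (ENSMUSG00000024222, minus strand of chromosome 17, from 28399094 to 28517527) was at 354, 443 and 307 CPM in the controls and at 327, 312 and 285 CPM in the Ni libraries. Control replicate 3 lay below Ni replicates 1 and 2, and the other controls lay above all 3 Ni libraries. The ratio of Ni to control was 0.837 (95% interval from 0.675 to 1.04), a log2 change of -0.26 (SE 0.14, edgeR adjusted p = 0.437). Without control replicate 3 it was -0.37 (adjusted p = 0.0389 from edgeR), and over the 6 fits that each left out 1 library it ranged from -0.37 to -0.10, the latter without control replicate 2. Fkbp4 encodes the related immunophilin FKBP52, which competes with FKBP51 for the complex. The ratio of Fkbp5 to Fkbp4 in FPKM was 1.79, 2.06 and 1.23 in the controls and 1.59, 1.05 and 1.47 in the Ni libraries, with overlapping groups. Fkbp4 alone had a log2 change of 0.07 (SE 0.17, edgeR adjusted p = 0.892).

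Sgk1 encodes a serum- and glucocorticoid-regulated kinase that acts on ion transport and cell survival, in a family close to AKT. Sgk1 (ENSMUSG00000019970, plus strand of chromosome 10, from 21882184 to 21999903) was at 52.2, 54.2 and 76.9 CPM in the controls and at 84.3, 74.5 and 83.7 CPM in the Ni libraries. Control replicate 3 lay above Ni replicate 2, and the other 2 controls lay below all Ni libraries. The mean was 61.1 ± 13.7 in controls against 80.8 ± 5.52 with Ni (CPM ± SD, n = 3 each). The ratio was 1.32 (95% interval from 1.05 to 1.66), a log2 fold change of 0.40 (SE 0.15, unadjusted p = 0.0208, adjusted p = 0.334 from edgeR; exact permutation test, two-sided, p = 0.2). Leaving out each library in turn gave from 0.30, without control replicate 1, to 0.61, without control replicate 3, where the adjusted p was 0.00155 in edgeR. With no filter on low counts the adjusted p was 0.0157 in edgeR. In that fit the SE was 0.12 for Sgk1, Cdkn1a, Tsc22d3 and Nr3c1 alike, against 0.15, 0.18, 0.14 and 0.10 with the filter. The scarce Zbtb16 and Hsd11b1 had SEs of 0.25 and 0.35 with no filter, against 0.20 and 0.40 with it. Why the SEs differed between the fits was not tested. The call of Sgk1 depended on which genes and libraries entered the fit.

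Among the 8 genes whose promoter windows were searched, Sgk1 was also the one with a full GRE. The RefSeq promoter windows used held 300 bases (250 before and 50 after an annotated start site, GRCm38.p6). No window of Nr3c1 or Zbtb16 was included, which does not show that these genes lack one. The windows of the other 8 of the 10 genes were searched, 17 windows in all. The palindromic GRE spelled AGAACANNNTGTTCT, which reads the same on both strands, occurred in 1 of these, and in 3 of all 32851 windows (0.00913%). The half-site TGTTCT, searched on both strands and therefore also counted inside the GRE, occurred in 4 of the 17, and in 19.0% of all windows. The other genes with a GRE window, Acnat2 and Gm35041, were not found by name among the genes tested. In Sgk1 the GRE lay at 21993701 to 21993715, beginning 189 bases before the start site of 1 of its 6 annotated windows. The counts pool the transcripts of all start sites. The window is printed because it is the only full match among the 17 windows. Capitals mark the GRE and, nearer the 5′ end, an E-box (CACGTG, the element that clock factors bind) that runs into a half-site:

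Sgk1 chr10:21993640-21993939, plus strand: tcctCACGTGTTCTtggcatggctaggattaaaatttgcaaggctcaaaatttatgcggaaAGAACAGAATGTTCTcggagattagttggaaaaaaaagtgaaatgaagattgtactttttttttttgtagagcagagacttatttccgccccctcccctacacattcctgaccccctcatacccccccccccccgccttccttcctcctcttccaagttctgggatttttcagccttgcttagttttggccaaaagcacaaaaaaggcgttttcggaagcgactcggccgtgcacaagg

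Promoter windows of 3 further genes show the other elements found. An upstream Tsc22d3 window held a half-site (in capitals), the Dusp1 window a cyclic AMP response element (CRE, spelled TGACGTCA) and an E-box, and 1 of the 2 Per1 windows an E-box, as did the Fkbp5 window, not printed. The CRE and the E-box both read the same on either strand. A CRE occurred in 1.79% and an E-box in 7.15% of all windows. Such a match describes the letters in this window and not binding:

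Tsc22d3 chrX:140600473-140600772, minus strand: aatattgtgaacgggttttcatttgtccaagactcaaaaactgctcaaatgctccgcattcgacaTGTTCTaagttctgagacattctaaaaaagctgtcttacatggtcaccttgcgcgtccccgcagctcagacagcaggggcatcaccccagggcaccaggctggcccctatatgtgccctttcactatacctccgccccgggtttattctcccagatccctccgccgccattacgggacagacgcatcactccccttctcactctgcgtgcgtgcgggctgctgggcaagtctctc
Dusp1 chr17:26508423-26508722, minus strand: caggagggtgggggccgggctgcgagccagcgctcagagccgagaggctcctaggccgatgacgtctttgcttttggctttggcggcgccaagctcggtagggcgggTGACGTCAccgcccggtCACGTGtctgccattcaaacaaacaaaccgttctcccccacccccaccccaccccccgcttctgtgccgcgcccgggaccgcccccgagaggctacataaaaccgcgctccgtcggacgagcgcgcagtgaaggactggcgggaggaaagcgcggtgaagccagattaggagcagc
Per1 chr11:69098699-69098998, plus strand: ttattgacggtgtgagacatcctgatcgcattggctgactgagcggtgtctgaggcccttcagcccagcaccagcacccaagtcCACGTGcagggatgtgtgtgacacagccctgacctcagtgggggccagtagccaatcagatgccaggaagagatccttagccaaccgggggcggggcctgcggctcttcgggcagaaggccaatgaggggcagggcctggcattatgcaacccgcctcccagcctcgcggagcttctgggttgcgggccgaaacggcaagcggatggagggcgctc

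Tsc22d3 encodes GILZ, the glucocorticoid-induced leucine zipper, which binds and restrains inflammatory transcription factors. Tsc22d3 (ENSMUSG00000031431, minus strand of chromosome X, from 140539528 to 140600659) was at 162, 167 and 212 CPM in the controls and at 251, 184 and 229.8 CPM in the Ni libraries. Ni replicate 2 lay below control replicate 3, and the remaining Ni libraries lay above all controls. The ratio was 1.23 (95% interval from 0.981 to 1.53), a log2 change of 0.29 (SE 0.14, edgeR adjusted p = 0.401), and 0.43 without control replicate 3 (adjusted p = 0.0304 from edgeR) and 0.20 without Ni replicate 1. Klf9 (ENSMUSG00000033863, plus strand of chromosome 19, from 23141226 to 23166911), a Krüppel-like zinc finger that feeds back on hormone responses, was at 42.6, 39.5 and 49.7 CPM in the controls and at 54.1, 42.7 and 51.9 CPM in the Ni libraries. Control replicate 3 again lay between the Ni libraries, and the log2 change came to 0.17 (SE 0.13, edgeR adjusted p = 0.574; 0.28 and 0.159 without control replicate 3, and 0.10 without control replicate 2).

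Cdkn1a (ENSMUSG00000023067, plus strand of chromosome 17, from 29090976 to 29100727) answers to p53 as well as to glucocorticoids. It was at 157, 164 and 263 CPM in the controls and at 243, 247 and 249.6 CPM in the Ni libraries. The Ni libraries agreed to within 1.27% (coefficient of variation), whereas the controls varied by 30.4%, with control replicate 3 above every Ni library and the other 2 far below. The ratio was 1.27 (95% interval from 0.952 to 1.69), a log2 change of 0.34 (SE 0.18, edgeR adjusted p = 0.438). Leaving out 1 library at a time moved it from 0.21, without control replicate 1, to 0.62, without control replicate 3, where the adjusted p was 0.000477 in edgeR. A gene on the opposite strand covers 7.68% of its exon bases, and other genes share 8.49% of its 50-base stretches, so its count is uncertain by reads that could be assigned to either. Other p53 targets were followed as a list of 18 tested genes, of which 12 had values above 0, the median being 0.14. At an unadjusted p under 0.05 there was 1 higher (Eda2r, a death-receptor gene, at 0.59) and 2 lower, of which Rrm2b, a nucleotide reductase subunit, was at -0.35, beside 7.59% higher and 5.83% lower of all genes tested. Without control replicate 3, 3 of the 18 were called higher and 1 lower at an adjusted p of 0.05, beside 8.69% and 6.49% of all genes. Mdm2 and Bax, the p53 inhibitor and a pro-apoptotic target, stood at 0.05 and -0.02, and Ccng1 at 0.19.

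Control replicate 3 was thus nearer in CPM to the mean of the Ni libraries than to the mean of the other controls for 7 of the 10 genes. The matching share of all genes was not computed. The 7 include Nr3c1 and Dusp1, whose Ni means lay only -0.05 and -0.06 from the mean of the other controls on the log2 scale. Relative to control replicates 1 and 2 it was 1.64 times as high for Cdkn1a, 1.45 times for Sgk1, 1.29 times for Tsc22d3 and 1.21 times for Klf9, and 0.771 times for Fkbp5. The Ni means relative to the same 2 controls, on the log2 scale, were 0.62, 0.60, 0.43, 0.27 and -0.37 in that order. Leaving out this library widens the difference between the groups by construction for these genes. Without it 4 of the 10 passed an adjusted p of 0.05 in edgeR (Sgk1, Tsc22d3 and Cdkn1a higher, Fkbp5 lower), against 15.2% of all genes in that fit, 8.69% higher and 6.49% lower. Osteoblast and stromal markers were also higher in control replicate 3 than in control replicates 1 and 2, as given above. Their part in these differences was not tested.

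**Figure D3:**
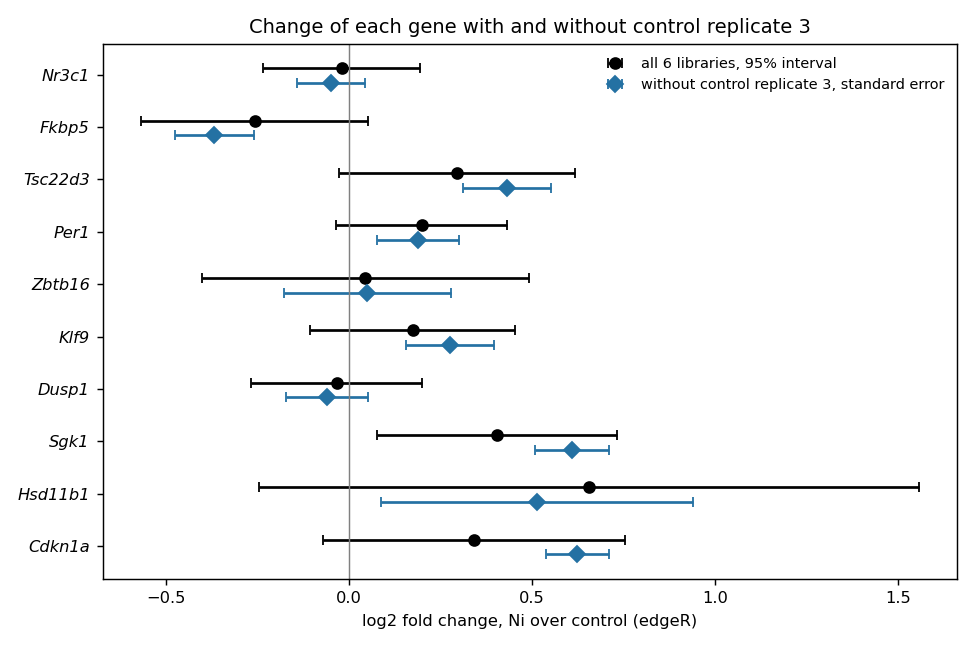
Log2 fold change of Ni over control in edgeR for each gene, from all 6 libraries (black, 95% interval) and without control replicate 3 (blue, standard error). Sgk1, Cdkn1a, Tsc22d3 and Fkbp5 move away from 0 without that library, while Nr3c1, Dusp1 and Zbtb16 stay near 0.

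For Dusp1 and Zbtb16 the groups overlapped throughout and the estimates lay near 0. Dusp1 encodes a phosphatase that switches off MAP kinases, and is both an immediate-early gene and a glucocorticoid target. Dusp1 (ENSMUSG00000024190, minus strand of chromosome 17, from 26505590 to 26508519) was at 46.7, 52.9 and 46.7 CPM in the controls and at 46.8, 51.9 and 44.2 CPM in the Ni libraries, with a ratio of 0.977 (95% interval from 0.831 to 1.15; adjusted p = 0.920 from edgeR). Among 21 further immediate-early genes the median log2 fold change was -0.03. At an unadjusted p under 0.05 there was 1, higher, beside 7.59% higher of all genes tested. This was Fosl2, an AP-1 subunit, at 0.50, with Ni above control in every library. Without control replicate 3 an adjusted p of 0.05 was passed by 3, all higher, where 8.69% of all genes were called higher. Junb and Jun stood at -0.08 each, Dusp6 at 0.08 and Fosl1 at 0.60 (SE 0.28, adjusted p = 0.394 from edgeR). Zbtb16 encodes PLZF, a zinc finger repressor that dexamethasone is known to raise in marrow stromal cells. Zbtb16 (ENSMUSG00000066687, minus strand of chromosome 9, from 48654297 to 48836222) had from 82 to 91 counts in the controls and from 81 to 105 in the Ni libraries, or 4.48, 5.73 and 5.10 CPM against 5.70, 4.66 and 5.41 CPM. The ratio was 1.03 with a wide 95% interval, from 0.757 to 1.41, so these libraries do not settle whether a change within these bounds took place.

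Hsd11b1 encodes the 11β-hydroxysteroid dehydrogenase that turns inactive cortisone or 11-dehydrocorticosterone into active hormone inside cells. Hsd11b1 (ENSMUSG00000016194, minus strand of chromosome 1, from 193221634 to 193264075) was counted 36, 28 and 22 times in the controls and 45, 24 and 75 times in the Ni libraries, or 1.97, 1.76 and 1.32 CPM against 2.44, 1.38 and 4.14 CPM. Ni replicate 3 alone was clearly above the other libraries, and Ni replicate 2 lay at the low end of the controls. The ratio was 1.58 with a 95% interval from 0.844 to 2.94 (log2 fold change 0.66, SE 0.40, adjusted p = 0.496 from edgeR). Without Ni replicate 3 the log2 fold change fell to 0.19, and without Ni replicate 2 it was 0.97 (adjusted p = 0.267 from edgeR). H6pd, which supplies the cofactor of this enzyme, averaged 100.0 ± 5.14 in controls against 106 ± 6.64 with Ni (CPM ± SD, n = 3 each). The opposing enzyme gene Hsd11b2 averaged 4.61 and 4.99 CPM. Of 8 tested genes of steroid metabolism and export 6 had values above 0, the median being 0.10. An unadjusted p under 0.05 in edgeR was reached by 0, against 13.4% of all genes tested. Abcb1b, an efflux pump, and Akr1c18, a steroid reductase, were at 0.12 and 0.22.

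Per1 is both a glucocorticoid target and a core gene of the circadian clock, in which CLOCK and BMAL1 drive the Per and Cry genes that in turn repress them. Per1 (ENSMUSG00000020893, plus strand of chromosome 11, from 69095217 to 69109960) was at 59.5, 65.2 and 60.5 CPM in the controls and at 64.8, 79.7 and 68.1 CPM in the Ni libraries. Only control replicate 2 reached into the Ni range, and unlike for Sgk1 or Cdkn1a control replicate 3 lay with its own group. The ratio was 1.15 (95% interval from 0.976 to 1.35), a log2 change of 0.20 (SE 0.11, edgeR adjusted p = 0.430), 0.19 without control replicate 3 and 0.11 without Ni replicate 2. The PAR-domain output gene Dbp was at 32.1, 35.5 and 28.0 CPM in the controls and at 43.4, 45.6 and 45.5 CPM in the Ni libraries, with no overlap. The change of Dbp on the log2 scale was 0.49 (SE 0.11, adjusted p = 0.212 from edgeR). Nr1d1, which encodes the clock repressor REV-ERBα, was at 16.1, 20.1 and 20.5 CPM in the controls and at 28.2, 28.3 and 22.5 CPM in the Ni libraries, likewise without overlap.

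Of the 16 clock genes tested beside Per1, 15 had values above 0, the median being 0.36 against -0.01 over all genes. This list, like the others, was written with earlier results of these data known, so its counts describe it and do not test it. At an unadjusted p under 0.05 there were 7 higher and 0 lower, against 7.59% higher and 5.83% lower of all genes tested, and with all 6 libraries and no block none passed an adjusted p of 0.05 (edgeR, smallest 0.212). For 8 of the 16 every Ni library lay above every control, against 7.97% of all genes tested. Tef, a relative of Dbp, was the most abundant at 86.2 ± 5.81 in controls against 99.2 ± 3.66 with Ni (CPM ± SD, n = 3 each). Bhlhe41 and Clock stood at 0.37 and 0.09 on the log2 scale. Arntl, which encodes BMAL1, was the 1 gene with a negative value, -0.17 (SE 0.13, adjusted p = 0.606 from edgeR), and is named here because its value stood out. Without control replicate 3 the median was 0.46 and 7 of the 16 passed an adjusted p of 0.05 in edgeR, all higher, where 8.69% of all genes were called higher. The hour of harvest is not given in the sources used here, and its part in these values was not tested.

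Further genes known to respond to glucocorticoids did not move in 1 direction. Of 34 tested genes mostly known as induced, 10 had a positive and 24 a negative value, the median being -0.09. At an unadjusted p under 0.05 there were 4 higher and 2 lower, beside the same 7.59% and 5.83% of all genes. Without control replicate 3, 6 of the 34 were called higher and 5 lower at an adjusted p of 0.05, beside 8.69% and 6.49% of all genes. Klf4, a Krüppel-like factor, averaged 33.8 ± 8.27 in controls against 51.0 ± 0.952 with Ni (CPM ± SD, n = 3 each), a log2 change of 0.59 (SE 0.16, edgeR adjusted p = 0.262). Lcn2, an iron-binding lipocalin, averaged 5.28 ± 0.964 and 2.62 ± 0.461 CPM (SD, n = 3 each), with every Ni library below every control, which held for 6.71% of all genes tested. Lox, a collagen crosslinking enzyme that is also a matrix gene, was the most abundant of the list and stood at 0.54, Timp3, a metalloproteinase inhibitor, at 0.44 and Txnip at -0.13. Of 17 tested genes known as repressed by glucocorticoids 6 had a positive and 11 a negative value, the median being -0.18. At an unadjusted p under 0.05 there were 2 higher and 6 lower, again beside 7.59% and 5.83% of all genes. With all 6 libraries and no block none passed an adjusted p of 0.05 (edgeR, smallest 0.262). Without control replicate 3, 3 were called higher and 4 lower, beside 8.69% and 6.49% of all genes. The inflammatory cytokine genes Tnf and Cxcl2 had log2 fold changes of -0.62 (SE 0.16) and -0.83 (SE 0.22), with every Ni library below every control for both. Icam1 and Vcam1, adhesion molecules of inflamed cells, stood at -0.51 and -0.18, while the collagenase gene Mmp13, also made by osteoblasts, stood at 0.51. The highest value of the list, 1.68 (SE 0.47, edgeR adjusted p = 0.305), was that of Bglap, osteocalcin, which the osteoblast markers also hold and which is named for its value. Of the 15 macrophage markers 11 had a negative value, 4 of them at an unadjusted p under 0.05 (5.83% of all genes tested), with a median of -0.19. Ptprc, the pan-leukocyte CD45 gene, averaged 407 CPM in controls and 318 CPM in Ni libraries, whereas Csf1r, the macrophage growth factor receptor gene, averaged 1859 and 1868 CPM. Their part in the inflammatory genes was not tested.

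**Figure D4:**
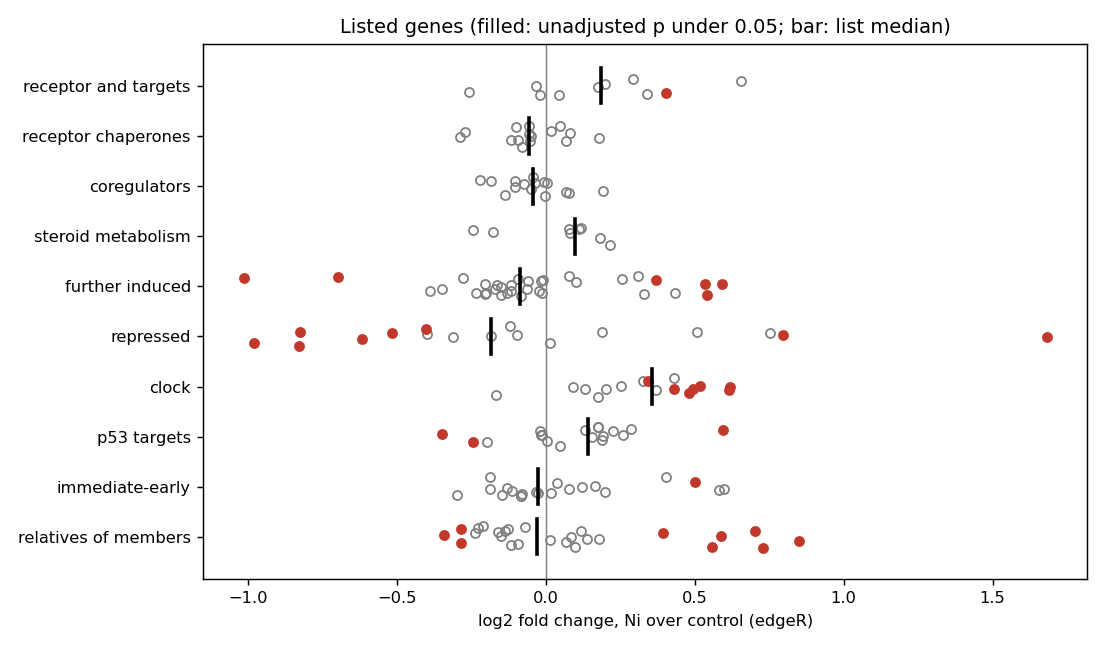
Log2 fold change of Ni over control in edgeR for the 10 genes and for each further list, 1 point per gene, filled red at an unadjusted p under 0.05, with a bar at the list median. The clock list lies to the right with a median of 0.36, and the chaperone and coregulator lists centre on 0 with no filled point.

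Relatives of the 10 genes by family were compared last. Of 26 tested, 13 had a positive and 13 a negative value (median -0.03), and at an unadjusted p under 0.05 stood 6 of the former and 3 of the latter, beside 7.59% higher and 5.83% lower of all genes tested. Without control replicate 3, 6 were called higher and 4 lower at an adjusted p of 0.05, beside 8.69% and 6.49%. Fkbp10 and Fkbp9, which encode immunophilins of the endoplasmic reticulum that fold collagen and other secreted proteins, had log2 fold changes of 0.73 (SE 0.19, adjusted p = 0.268 from edgeR) and 0.59 (SE 0.19, adjusted p = 0.306), opposite in sign to Fkbp5. Fkbp10 was at 92.1, 90.2 and 148 CPM in the controls and at 198, 166 and 185 CPM in the Ni libraries, so that every Ni library lay above every control. Fkbp8, a mitochondrial relative, was at -0.07. Klf6 averaged 288 ± 39.8 in controls against 236 ± 4.17 with Ni (CPM ± SD, n = 3 each), a log2 change of -0.29, opposite in sign to Klf9. Zbtb7c, a relative of Zbtb16, was at 0.85 (SE 0.24, adjusted p = 0.283 from edgeR).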

How the data were processed

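Libraries of 3 control and 3 Ni cultures were made from fragmented mRNA with the NEBNext Ultra RNA kit. The authors deposited raw read counts for each gene, in whole numbers and on GRCm38 per the labels. The deposited FPKM values equal those counts divided by gene length and multiplied by a library factor (relative deviation at most 2.19e-08). The aligner, counter and strand setting are not given in the sources used here. Counts were filtered by edgeR's filterByExpr, normalized by TMM and tested with the quasi-likelihood test of edgeR 4.0.16 (R 4.3.3), robustly and with 0.125 as prior count, all 6 libraries entering, with Benjamini-Hochberg adjustment over all genes. Standard errors were the unshrunk coefficient over the root of F. DESeq2 1.42.0 and limma 3.58.1, on log2(FPKM + 1) and log2(FPKM + 0.1), were alternatives, as were DESeq2 size factors or library totals in edgeR, no filter, at least 10 counts in every library, a replicate block and leaving out each library. The members and gene lists were chosen with earlier results of these data known. Named list genes were the 3 with the highest CPM and the 2 with the smallest p in each pathway list, and of the cell type lists single markers that were at 0 or define the cell type (Ptprc, Csf1r), except where stated, as for Nr3c2, Fkbp4, Arntl and Bglap, chosen after their values were seen. Of the genes this rule names, 1 is not reported here. The edgeR fit was tested on simulated counts. Promoter windows were RefSeq's, exon overlap and shared 50-base stretches came from GENCODE M21. Libraries of the same group differed by more than counting noise (chi-square over its degrees of freedom from 4.55 to 47.1).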

Additional observations from a re-analysis of the deposited data

How the results depend on the processing

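The median log2 fold change of the 10 genes stayed positive under every alternative, from 0.15 to 0.23. Of 140 single-gene values under alternatives, 129 kept direction and side of the threshold, 5 passed an adjusted p of 0.05 and 6 changed sign. The sign changes were all in fits leaving out 1 library, for genes near 0, where Nr3c1 ranged from -0.065 to 0.039 (0.017 without Ni replicate 2), Zbtb16 from -0.041 to 0.136 (-0.016 without Ni replicate 1) and Dusp1 from -0.097 to 0.030 (0.019 without Ni replicate 3).

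Of all genes, 0 passed an adjusted p of 0.05 in edgeR (1963 at an unadjusted p under 0.05), against 264 with DESeq2's Wald test, 1027 with no filter on low counts, 2 with limma on log2(FPKM + 1) and 315 with the replicate block. At an unadjusted p under 0.05 were 3057 of 25876 genes with no filter (11.8%) and 2769 of 14624 with the replicate block (18.9%). Of the 10 genes, 1 (Sgk1) was called with no filter, and 4 had an unadjusted p under 0.05 there and 3 with the replicate block, against 1 in edgeR. The cause was not tested. Fits leaving out 1 library gave from 0 to 2283 genes called, 868 to 4125 at an unadjusted p under 0.05, 0 to 4 of the 10 called and 0 to 5 at an unadjusted p under 0.05, the highest without control replicate 3. Without Ni replicate 2, 4 of the 10 had an unadjusted p under 0.05 in edgeR, beside 16.3% of all genes, and 0 were called. The deviations of libraries with the same number correlated at 0.0104, 0.256 and 0.138. These 3 values cannot tell whether libraries with the same number share a batch or a source, which was not tested. The replicate block changed no call among the 10. With the block 2 of the 16 clock genes passed an adjusted p of 0.05, both higher. So did 3 relatives and 1 p53 target, all higher, and 1 higher and 1 lower of the repressed genes. Of all genes 2.15% were called in that fit. The fewest counts lay behind Hsd11b1 and Zbtb16, 230 and 542 over the 6 libraries, and how much of their intervals comes from depth was not tested.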
